A study of Mus musculus with 2 samples.

Results

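The E2F family of transcription factor genes was followed in 2 RNA sequencing libraries from mouse medulloblastoma, a tumour of the cerebellum. All 8 genes, E2f1 to E2f8, were taken by name out of 23284 gene symbols in the deposited files. The family and the gene lists used below were chosen with earlier results of these data known. Each had 1 record with status OK in both libraries. The comparison addresses how expression differs in SmoM2-driven medulloblastoma when Brg1, the chromatin remodelling ATPase encoded by Smarca4, is deleted. Both animals carried CAG-CreER, a tamoxifen-inducible Cre under a broadly active promoter, and Rosa26-SmoM2, an activated form of the Hedgehog pathway protein Smoothened, and both received 10 tamoxifen injections. One was Brg1+/+ (the wild-type library, n = 1) and the other Brg1F/F (the knockout library, n = 1). The RNA was total RNA of dissected tumour, so cells of the surrounding tissue may be included, and the sources used here give no age.

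E2F proteins bind DNA at the promoters of genes needed for entry into the cell cycle and for DNA replication. E2F1, E2F2 and E2F3 are the activators, which switch these genes on once the retinoblastoma protein Rb releases them. E2F4 and E2F5 act mainly as repressors together with the pocket proteins, E2F6 represses as part of a Polycomb complex without pocket proteins, and E2F7 and E2F8 are atypical repressors that bind DNA without a dimer partner. Hedgehog signalling drives granule neuron precursors of the cerebellum to divide, in part through this pathway.

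With 1 library per genotype there was no replicate check, no error and no test, and "higher" and "lower" compare these 2 libraries, which can differ through the animals as well as the genotype. Records of at least 1 FPKM (fragments scaled to transcript length and library depth) in at least 1 library were called expressed, 13279 of 23746. The log2 ratio is log2((knockout FPKM + 1)/(wild-type FPKM + 1)), and a fixed rule of size, 2-fold, took the place of a test. By it 8.67% of expressed records were lower and 16.1% higher by at least 2-fold in the knockout library, and the median log2 ratio was 0.09. Smarca4 itself had 14.0 FPKM in the wild-type against 3.76 FPKM in the knockout library (a log2 ratio of -1.66). In bulk tissue, fewer cells of a type and less RNA per cell cannot be told apart.

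Every E2F gene had a lower value in the knockout library. Log2 ratios ran from -2.45 for E2f1 to -0.64 for E2f5, and the median of the 8 genes was -1.31. A log2 ratio below 0 was found in 8 of 8 E2F genes and in 45.2% of all expressed records. The 2-fold rule was met by 4 of the 8, E2f1, E2f2, E2f7 and E2f8, against 8.67% of all expressed records. At 1.5-fold all 8 were lower, against 18% of expressed records, and at 4-fold 1 was, E2f1, against 1.5%. The count at 4-fold depends on the added 1 FPKM, and the count at 1.5-fold on the scaling. With both libraries brought to an equal FPKM sum, E2f3 (log2 ratio -0.48) and E2f5 (-0.47) fell short of 1.5-fold. In plain FPKM the wild-type value was 5.93 times the knockout value for E2f1, 4.23 times for E2f2, 6.59 times for E2f7 and 4.55 times for E2f8. The members past the 2-fold rule were thus 2 of the 3 activators and 2 of the 5 other members, so the division did not follow that between activators and repressors. The 8 values formed 2 blocks, with E2f2 the nearest member past the rule (log2 ratio -1.74) and E2f6 the nearest within it (-0.87).

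**Figure D1:**
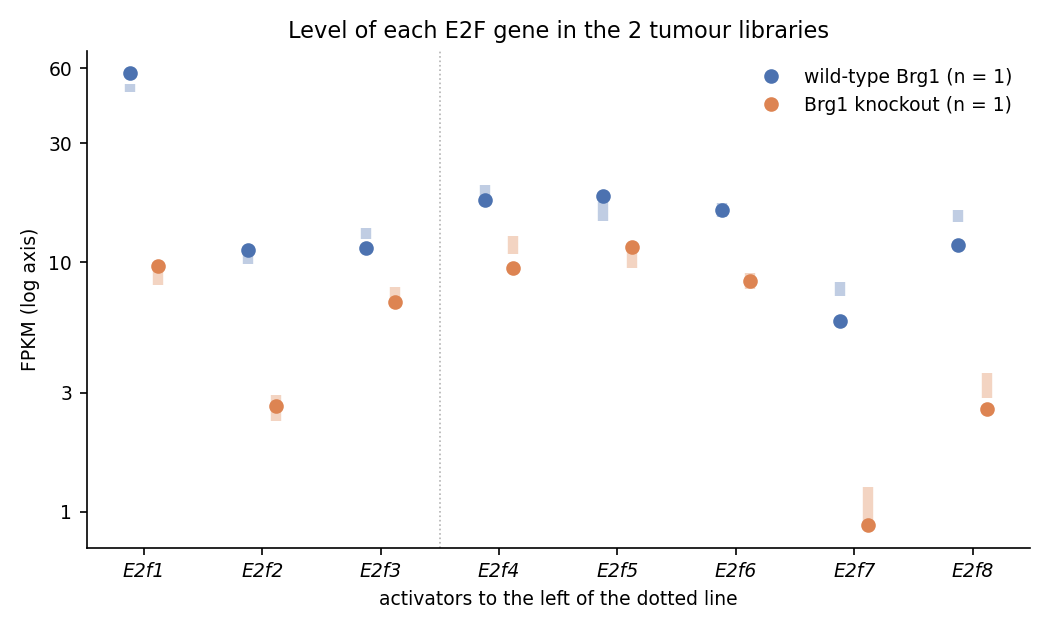
FPKM of each E2F gene on a log axis, with 1 point per library and the deposited lower and upper bounds as pale bars. Every knockout point lies below its wild-type point, from E2f1 (57.2 and 9.65 FPKM) to E2f7 (5.82 and 0.882 FPKM), and many points lie outside their own bounds.

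Promoter letters were read because members that were low together are themselves known, as background, to be under E2F control. The windows come from RefSeq (GRCm38.p6, the assembly of mm10) and hold 250 bases before and 50 after an annotated start, and 6 of the 8 members have at least 1. Windows of E2f4 and E2f5 were not used here. The E2F letters searched were TTTCGCGC, TTTGGCGC, TTTCCCGC and TTTGCCGC, and the letters of the cell cycle homology region, a site bound by the MuvB complex, were TTTGAA. Both strands were read and any match counted, and spellings may overlap. The stretches below, each 5′ to 3′ on the gene's strand and ending just before the RefSeq start, show the windows of a member within the 2-fold rule with a match to each motif (E2f3), a member within it with no match (E2f6), and both atypical members past it (E2f7 and E2f8). Capitals mark the matches.
E2f3, chr13:29986064-29986313, minus strand: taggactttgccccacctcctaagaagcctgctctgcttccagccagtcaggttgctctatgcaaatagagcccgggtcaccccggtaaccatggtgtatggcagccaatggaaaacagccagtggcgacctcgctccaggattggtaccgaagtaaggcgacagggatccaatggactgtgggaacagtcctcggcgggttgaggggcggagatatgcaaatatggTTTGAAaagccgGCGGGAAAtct
E2f6, chr12:16810715-16810964, plus strand: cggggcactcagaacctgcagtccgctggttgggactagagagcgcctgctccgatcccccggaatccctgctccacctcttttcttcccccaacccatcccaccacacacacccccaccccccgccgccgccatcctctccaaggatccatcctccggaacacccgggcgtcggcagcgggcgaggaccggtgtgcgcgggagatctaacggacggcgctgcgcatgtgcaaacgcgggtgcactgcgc
E2f7, chr10:110745189-110745438, plus strand: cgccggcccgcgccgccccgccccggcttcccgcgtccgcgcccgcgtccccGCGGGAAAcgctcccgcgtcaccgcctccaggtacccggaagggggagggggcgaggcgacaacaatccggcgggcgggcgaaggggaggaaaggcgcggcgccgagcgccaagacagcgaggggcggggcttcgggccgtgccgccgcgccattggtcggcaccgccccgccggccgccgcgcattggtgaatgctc
E2f8, chr7:48881597-48881846, minus strand: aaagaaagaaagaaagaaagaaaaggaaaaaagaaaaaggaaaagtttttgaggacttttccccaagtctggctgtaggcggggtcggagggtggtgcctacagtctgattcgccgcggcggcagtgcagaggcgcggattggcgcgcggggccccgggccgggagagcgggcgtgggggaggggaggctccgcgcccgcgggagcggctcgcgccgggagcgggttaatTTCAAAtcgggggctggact
E2f2, chr4:136172294-136172323, plus strand, 30 bases past the RefSeq start around its match: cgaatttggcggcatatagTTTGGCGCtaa

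In E2f3 the E2F letters (TTTCCCGC, read on the reverse strand) began 11 bases before the start and TTTGAA 23 bases before it. E2f7 held TTTCCCGC on the reverse strand 198 bases before its start, and E2f8 held TTTGAA on the reverse strand (printed as TTCAAA) 20 bases before its start. The E2f2 match, TTTGGCGC, began at base 40 of the RefSeq transcript, and the start in the deposited gene model lies 120 bases past the RefSeq start. For E2f1 the RefSeq start lies 426 bases inside the deposited gene model, and its window held neither motif. The RefSeq start of E2f8 lies 555 bases before the deposited start, while that of E2f6 and the E2f3 start shown above coincide with it. A further E2f3 start, 1672 bases into the gene, had a window with neither motif. A match to the E2F letters was thus present in members of both blocks, in 3 of 6 members and in 2.61% of all 27025 genes with a window (2.26% of all 32851 windows). TTTGAA was found in 3 of 6 members, for E2f2 only in the window of a further start 8388 bases into the gene, and in 20.2% of all genes (17.9% of all windows). A match is a description of letters and does not show binding.

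E2f1, the activator best known for driving S phase entry, was the most abundant member in the wild-type library. It had 57.2 FPKM there, against 9.65 FPKM with Brg1 knocked out (log2 ratio -2.45), so that 16.9% of the wild-type level was present in the knockout library. Only 96 of the 13279 expressed records had a lower log2 ratio. In the wild-type library 7.79% of expressed records had more FPKM than E2f1, and in the knockout library 48.4% did. E2f1 alone made up 48.8% of the FPKM by which the family's sums differed. The gene lies on chromosome 2, bases 154559639 to 154569852 (mm10), and its deposited bounds, 48.1 to 52.1 FPKM in the wild-type library, lie below its FPKM value.

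E2f2, an activator closely related to E2f1, had 11.2 FPKM in the wild-type against 2.64 FPKM in the knockout library (chromosome 4, 136172394 to 136196056, log2 ratio -1.74). The remaining activator, E2f3, had 11.4 and 6.96 FPKM (chromosome 13, 29906575 to 29986063, log2 ratio -0.64). In the wild-type library these 2 activators were thus nearly level, and in the knockout library E2f3 was well above E2f2. E2f3 makes 2 main transcripts from separate starts, of which the longer form is the cell cycle regulated one. The deposited table gives E2f3 with 1 start site, so the forms could not be told apart. GENCODE M21 places an antisense gene, Gm11365, over 1979 bases within the E2f3 locus, and the strand setting of the counting is not given in the sources used here.

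E2f4, E2f5 and E2f6, the repressors that are also present in resting cells, all stayed within 2-fold. E2f4, the most abundant E2F of many tissues, had 17.8 FPKM in the wild-type against 9.52 FPKM in the knockout library (chromosome 8, 105297663 to 105305370, log2 ratio -0.83). E2f5, its close relative, had 18.4 and 11.5 FPKM (chromosome 3, 14578671 to 14606309, log2 ratio -0.64). E2f6 had 16.2 and 8.41 FPKM (chromosome 12, 16810965 to 16826752, log2 ratio -0.87). The knockout values of these genes were 53.6%, 62.3% and 51.9% of the wild-type values, a range that also holds E2f3 (61.0%). Their log2 ratios sat in the lower part of the whole table, since 11.7%, 16.3% and 11.0% of expressed records had lower ones. E2f5 overlaps the end of 1810022K09Rik (176 and 134 FPKM) by 26 bases.

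The atypical repressors E2f7 and E2f8, which are induced late in S phase and damp the activators' targets, were both at least 2-fold lower. E2f7 was the least abundant member in either library, with 5.82 FPKM in the wild-type against 0.882 FPKM in the knockout library (chromosome 10, 110745465 to 110787384, log2 ratio -1.86). On the plain FPKM scale 15.2% of its wild-type level was present in the knockout library, the lowest share of any member, and the added 1 FPKM makes its log2 ratio smaller. With 0.1 FPKM added, its log2 ratio was -2.59 and that of E2f1 was -2.56. E2f8 had 11.7 and 2.57 FPKM (chromosome 7, 48866429 to 48881041, log2 ratio -1.83), close to the pair of values of E2f2. GENCODE M21 places 1700020G17Rik, listed at 0 in both libraries, antisense over 2800 bases of E2f7, and Gm2788 over 3084 bases of E2f8 on the other strand.

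**Figure D2:**
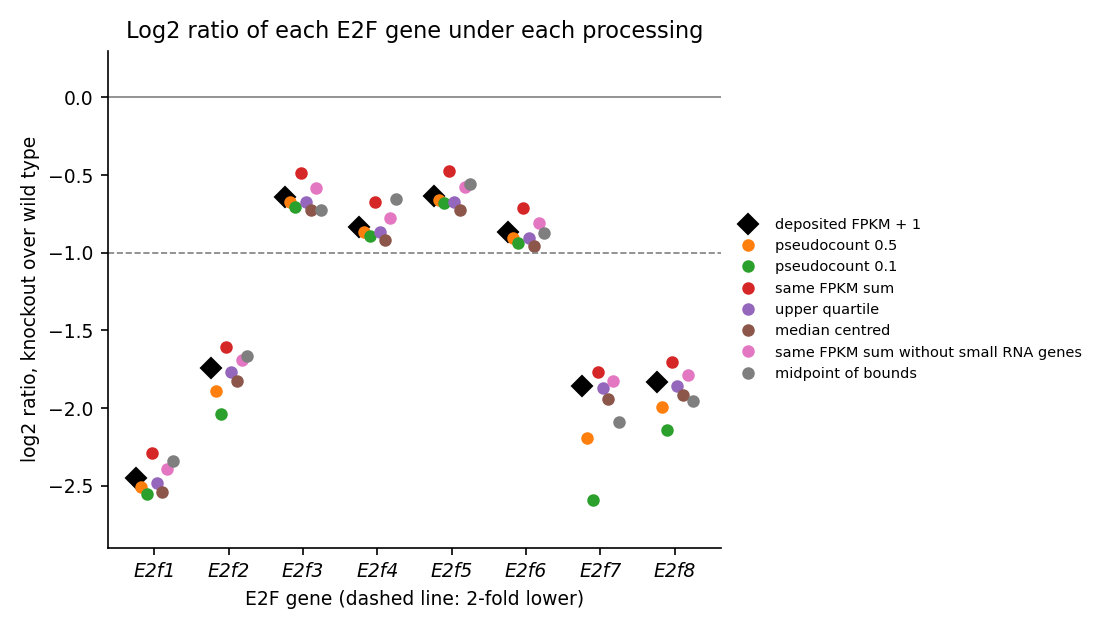
Log2 ratio (knockout over wild type) of each E2F gene from the deposited FPKM with 1 FPKM added (black diamonds) and under 7 other ways of processing (circles), with the dashed line at 2-fold lower. E2f1, E2f2, E2f7 and E2f8 lie below the line in every case, and E2f3 to E2f6 lie between -0.96 and -0.47.

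Set against each other, the activators took the larger share of the family's transcripts in the wild-type library and the smaller share in the knockout library. E2f1 to E2f3 summed to 79.8 FPKM in the wild-type against 19.3 FPKM in the knockout library, and E2f4 to E2f8 to 69.9 and 32.9 FPKM. The activators' share of the family sum was 53.3% and 36.9%, and the ratio of activators to the other members was 1.14 and 0.586, a difference of -0.96 on the log2 scale. Most of that difference was absent without E2f1. For the remaining activators the ratio of E2f2 and E2f3 to E2f4 through E2f8 was 0.323 in the wild-type and 0.292 in the knockout library, a log2 difference of -0.15. The direction also depended on the repressors taken. Against E2f4 to E2f6 the activators' ratio went from 1.52 to 0.655, while against the atypical E2f7 and E2f8 it went from 4.55 to 5.57.

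**Figure D3:**
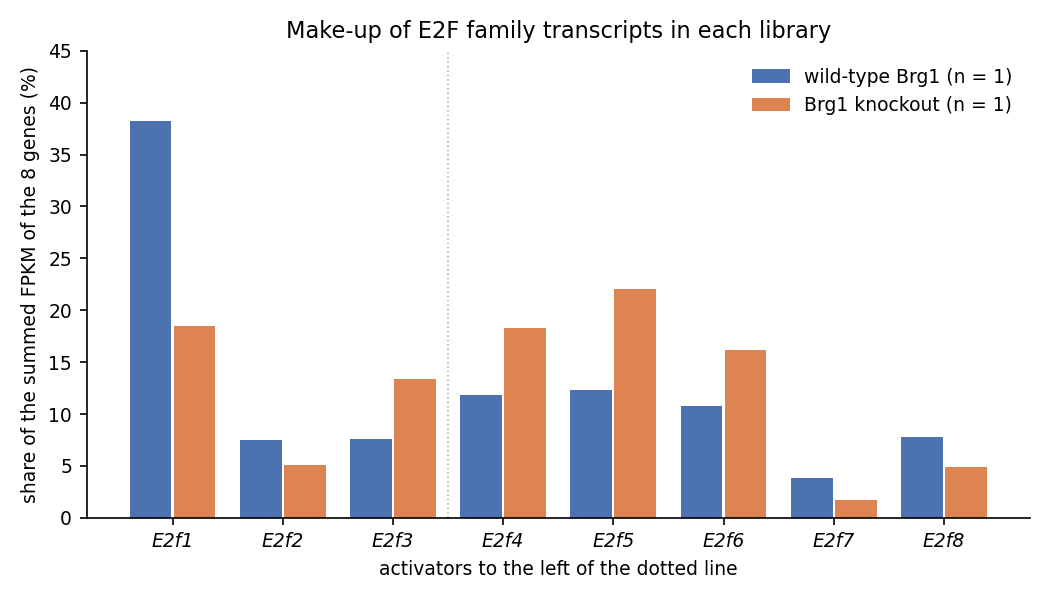
Share of the summed FPKM of the 8 E2F genes that each gene held in each library (bars from 0, 1 library per genotype). E2f1 held 38.2% in the wild-type and 18.5% in the knockout library, and E2f3 to E2f6 each held a larger share in the knockout library.

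The order of the members by level also differed. In the wild-type library E2f1 was followed by E2f5, E2f4, E2f6, E2f8, E2f3, E2f2 and E2f7. In the knockout library the order was E2f5, E2f1, E2f4, E2f6, E2f3, E2f2, E2f8 and E2f7. With no replicates there was no spread by which to part neighbours, and E2f8, E2f3 and E2f2 lay within 11.2 to 11.7 FPKM in the wild-type library. From the midpoints of the deposited bounds E2f4 (11.7 FPKM) was highest in the knockout library, above E2f5 (10.6) and E2f1 (9.08), so the order at the top depends on which deposited value is read. E2f1 was highest in the wild-type library either way.

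The dimer partners, through which E2F1 to E2F6 bind DNA, summed to 53.0 FPKM with wild-type Brg1 and 28.3 FPKM in the knockout. Tfdp1, which encodes the main partner DP1, had 45.9 FPKM in the wild-type against 21.8 FPKM in the knockout library (a log2 ratio of -1.04), at the edge of the 2-fold rule, and its log2 ratio was -0.87 after both libraries were brought to an equal FPKM sum and -1.40 from the bound midpoints. Tfdp2 had 7.09 and 6.46 FPKM (log2 ratio -0.12). The summed FPKM of E2f1 to E2f6 was 2.497 times that of the partners in the wild-type and 1.72 times in the knockout library. The Tfdp1 FPKM lay below its own deposited bounds in both libraries (lower bounds 94.02 in the wild-type and 34.54 in the knockout). The partner sums and these ratios thus depend on which deposited value of Tfdp1 is read. The ratios were not computed from the bound midpoints, so whether the balance of E2F genes and partners differed was not settled.

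Of the pocket proteins, which hold E2F proteins inactive, only Rbl1 met the 2-fold rule. Rb1, the retinoblastoma gene, had 26.4 FPKM in the wild-type against 25.9 FPKM in the knockout library (a log2 ratio of -0.03). Rbl1, which pairs with E2F4 in dividing cells and is itself an E2F target, had 10.1 and 2.96 FPKM (log2 ratio -1.49). Rbl2, the pocket protein of resting cells, had 8.35 and 10.6 FPKM (log2 ratio 0.31). The pocket protein genes together had 44.9 and 39.4 FPKM, while the E2F family had 149.8 and 52.1 FPKM, so the ratio of E2F to pocket protein transcripts was 3.34 in the wild-type and 1.32 in the knockout library. For the activators over Rb1 alone it was 3.02 and 0.743. The ratio of Rbl2 to Rbl1 was 0.825 and 3.57. These are ratios of transcripts and say nothing of protein or phosphorylation.

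The MuvB core joins E2F4 or E2F5 and a pocket protein to form the DREAM repressor complex, and joins B-Myb (Mybl2) and Foxm1 to activate mitotic genes. The 2 activating partners were at least 2-fold lower, Mybl2 with 9.08 and 1.84 FPKM (log2 ratio -1.83) and Foxm1 with 31.2 and 6.10 FPKM (log2 ratio -2.18). The core subunits all stayed within 2-fold. Rbbp4, a histone binding subunit shared with other complexes, had 96.1 and 58.1 FPKM. Lin54, the subunit that binds DNA, had 6.81 and 3.88 FPKM, and Lin9 had 9.74 and 6.01 FPKM. Lin52 (14.5 and 15.9 FPKM) and Lin37 (6.97 and 7.39 FPKM) had nearly level values.

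Of 11 expressed partners of E2F6 in its Polycomb complex 1 was at least 2-fold lower, near the 8.67% of all expressed records. This was Cbx3 (235.1 and 116.3 FPKM, log2 ratio -1.01), a chromodomain protein gene, and its log2 ratio was -0.83 at equal FPKM sums and -1.24 from the bound midpoints. The list median was -0.20, against 0.09 over all expressed records. Rnf2, a ubiquitin ligase subunit of Polycomb complexes, had 48.3 and 30.4 FPKM, Ehmt1, a histone methyltransferase gene, had 11.6 and 8.72 FPKM, and L3mbtl2 had 6.31 and 6.06 FPKM. Pcgf6, the subunit particular to this complex, had 5.90 and 3.66 FPKM, with a log2 ratio of -0.57 from FPKM and -1.19 from the midpoints of the bounds.

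Genes of ubiquitin ligases that degrade E2F proteins went different ways. Ccnf (14.8 and 2.74 FPKM, log2 ratio -2.08) and Skp2 (24.5 and 4.83 FPKM, log2 ratio -2.13), which encode substrate receptors, were at least 2-fold lower. Fzr1, an activator of the anaphase-promoting complex, had 37.5 and 15.9 FPKM (log2 ratio -1.18). The shared subunit genes Cul1 (24.95 and 36.5 FPKM) and Skp1a (177.8 and 288.0 FPKM) stayed within 2-fold, with higher values in the knockout library.

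Known targets of E2F proteins were lower in the knockout library, with a median log2 ratio between the 2 blocks of E2F genes. Of 40 target genes in 5 lists, all expressed, 34 were at least 2-fold lower and 0 higher, against 8.67% and 16.1% of all expressed records, and their median log2 ratio was -1.67. E2f1 (-2.45) was lower than this median, E2f2, E2f7 and E2f8 (-1.86 to -1.74) were close to it, and E2f3 to E2f6 (-0.87 to -0.64) lay above it. In the origin licensing and helicase list all 12 genes were at least 2-fold lower (median -1.72), led by Mcm6 of the replicative helicase (62.0 and 9.56 FPKM) and the licensing factors Cdt1 (41.3 and 7.07 FPKM) and Cdc6 (9.52 and 1.41 FPKM). Mcm3 had 26.8 and 6.61 FPKM, and Orc1, of the origin recognition complex, had 2.59 and 0.588 FPKM. Orc1 was nearest to the rule with 1 FPKM added (log2 ratio -1.18), but not with 0.1 FPKM added (-1.97).

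Among cyclins and kinases of the G1 to S transition 6 of 7 genes met the rule (median -1.90). Fbxo5, an inhibitor of the anaphase-promoting complex, had 36.3 and 6.02 FPKM, the cyclin genes Ccna2 138.4 and 28.4 FPKM and Ccne2 22.0 and 5.16 FPKM, and the kinase gene Cdk1 89.0 and 19.6 FPKM. Ccne1, often taken as the model target of the activators, was the exception with 5.24 and 2.97 FPKM (log2 ratio -0.65). It thus lay beside E2f3 and E2f5 rather than beside E2f1.

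All 7 replication fork genes met the rule (median -1.47). Pold1, a DNA polymerase subunit, had 30.8 and 7.67 FPKM, the primase gene Prim1 40.7 and 13.5 FPKM, the ligase gene Lig1 14.7 and 4.48 FPKM, and Pole 9.60 and 2.83 FPKM. Pola1 lay at the edge (7.405 and 3.13 FPKM, log2 ratio -1.02, or -0.89 at equal FPKM sums and -1.40 from the bound midpoints). In nucleotide synthesis 4 of 5 genes met it (median -1.78), with thymidine kinase Tk1 lowest (40.9 and 5.35 FPKM, log2 ratio -2.72), then Tyms (17.0 and 3.46 FPKM) and Rrm2 (76.0 and 21.3 FPKM). Rrm1, whose product pairs with that of Rrm2, had 43.9 and 23.2 FPKM (log2 ratio -0.89).

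In the chromatin and repair list 5 of 9 genes met the rule (median -1.59). With 0.1 FPKM added, or after median centring, 7 did. The 5 included the uracil glycosylase Ung (25.4 and 3.37 FPKM), the maintenance methylation factor Uhrf1 (46.9 and 8.46 FPKM) and the checkpoint kinase Chek1 (26.1 and 4.51 FPKM). All 11 mitotic targets of MuvB met it (median -2.11), led by Ube2c (180.2 and 23.8 FPKM), Aurkb (39.0 and 5.63 FPKM), Aurka (38.2 and 6.999 FPKM) and Plk1 (27.8 and 5.16 FPKM). Cenpe (6.81 and 2.29 FPKM) was nearest to the rule with 1 FPKM added (log2 ratio -1.25), but not with 0.1 FPKM added (-1.53).

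**Figure D4:**
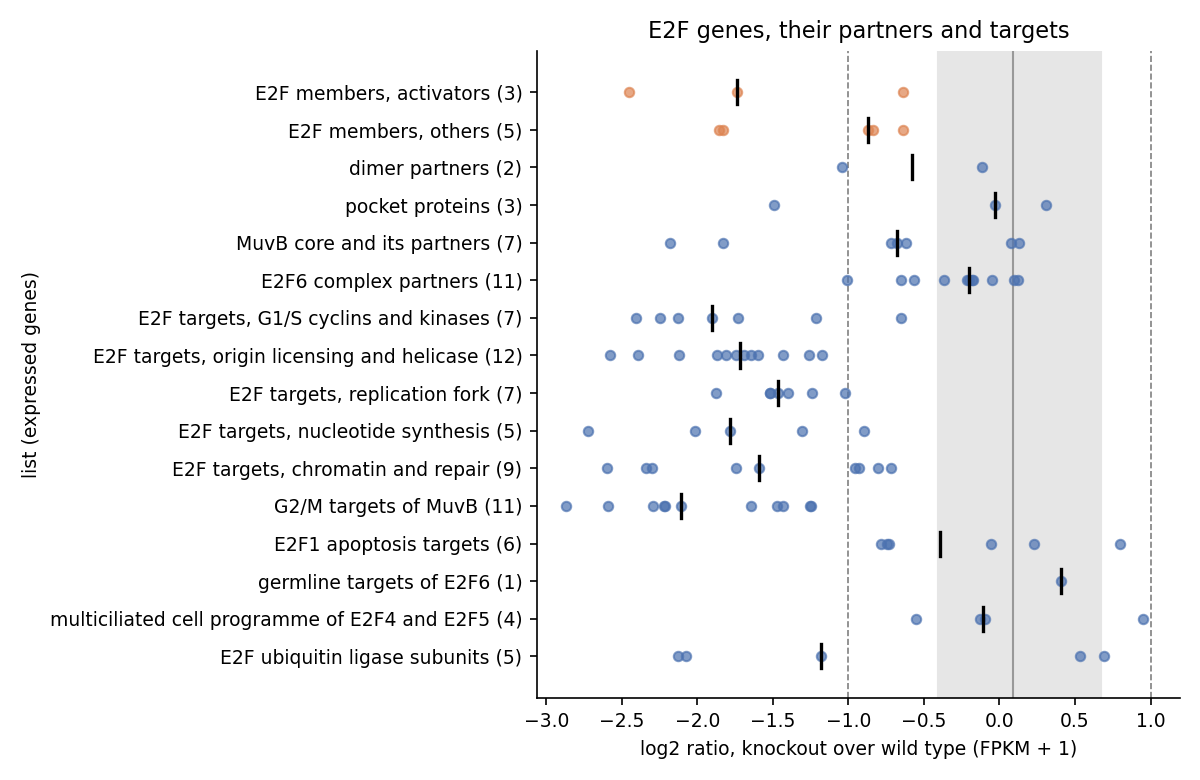
Log2 ratio (knockout over wild type) of every expressed gene of each list, 1 point per gene, with the list median as a black bar, the interquartile range of all expressed records shaded (-0.41 to 0.68) and dashed lines at 2-fold. The E2F genes (orange) run from -2.45 to -0.64, on both sides of the line. The targets of replication and mitosis lie almost wholly past the line, and the E2F6 partners and apoptosis targets lie mostly within it.

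Targets of E2F proteins outside the cell cycle were also read. Of 6 expressed apoptosis genes that E2F1 can activate, 0 met the rule in either direction, and the median was -0.39. With 8.67% of all expressed records lower and 16.1% higher, a count of 0 among so few genes is near the background. Apaf1 (9.40 and 5.19 FPKM) and Bcl2l11 (10.7 and 6.03 FPKM) had lower values in the knockout library. Pmaip1 had a higher value, with 1.42 and 3.21 FPKM (log2 ratio 0.80, or 1.12 with 0.1 FPKM added).

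Germline genes known, as background, to be silenced by E2F6 were mostly low in both libraries. Low values are common, since only 13279 of all 23746 records reached 1 FPKM in at least 1 library, and silencing by E2F6 was not tested. Of 7 such genes 6 were under 1 FPKM in both libraries, and the remaining cohesin gene Stag3 had 0.997 and 1.65 FPKM (log2 ratio 0.41). Genes of the multiciliated cell programme, in which E2F4 and E2F5 take part, were found for 5 of 8 symbols, of which 4 were expressed and 0 met the rule, a count that is likewise near the background. The ciliogenesis factor Foxj1 had 2.51 and 5.796 FPKM (log2 ratio 0.95, and 1.07 with bound midpoints), Myb 4.49 and 2.74 FPKM, Rfx3 14.8 and 13.4 FPKM, and Rfx2 2.87 and 2.62 FPKM.

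Promoter letters and expression were also set side by side over the 9425 expressed records with a RefSeq window. Of 443 records with the E2F letters 17.4% were at least 2-fold lower and 8.58% higher (median log2 ratio -0.21), and of 8982 without them 7.62% were lower and 16.1% higher (median 0.10). Of the 40 targets 32 had a window, and 17 of these genes (53.1%) held the E2F letters, against 2.61% of all genes with a window. With TTTGAA 10.5% were lower and 17.5% higher (median 0.04), and without it 7.68% were lower and 15.4% higher (median 0.09), so that both shares were larger with it. Among the mitotic targets of MuvB 7 of 10 genes with a window held TTTGAA, against 20.2% of all genes, and 0 held the E2F letters, against 2.61%. These shares are a description, since genes with such letters share other promoter properties, such as base composition, which were not compared.

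**Figure D5:**
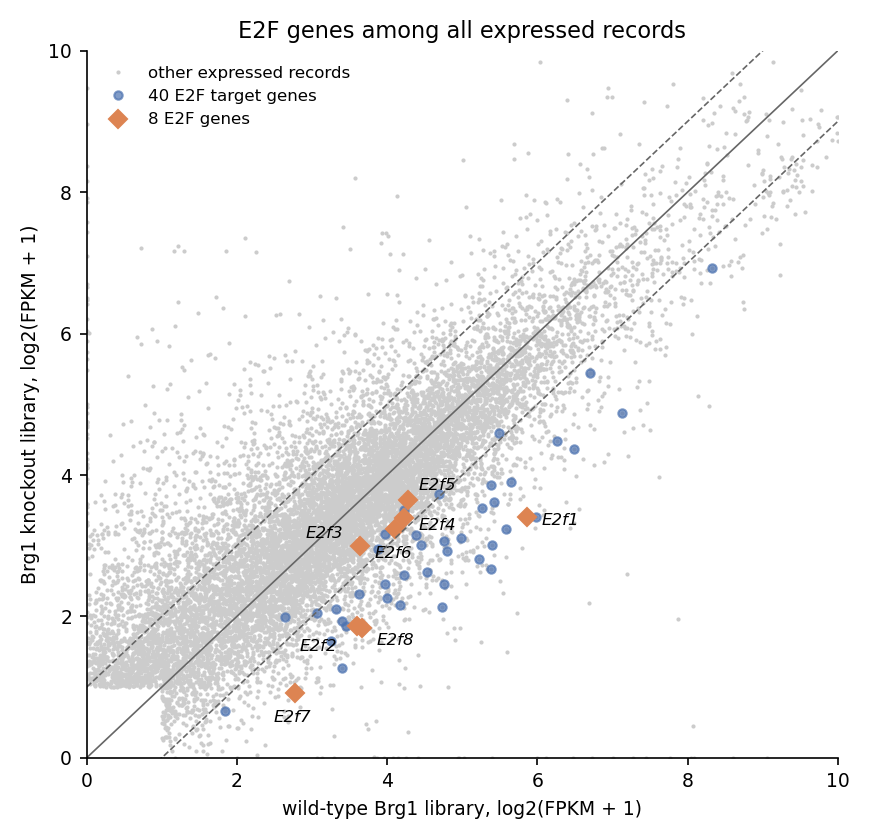
Level of each expressed record in the wild-type (x) and the knockout (y) library as log2(FPKM + 1), with equality as a solid line and 2-fold as dashed lines (39 records lie beyond the axes). E2f1, E2f2, E2f7 and E2f8 lie below the lower dashed line among the E2F targets (blue), and E2f3 to E2f6 lie between it and the line of equality.

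The expressed records nearest to single members were taken as those with the smallest distance in the pair of log2(FPKM + 1) values, which covers only 2 libraries. For E2f1 these were Mcm6 (distance 0.11), Adck5 (61.5 and 8.55 FPKM) and Syt13 (66.2 and 9.79 FPKM). For E2f2 they were Mms22l (10.6 and 2.67 FPKM), E2f8 and Kntc1 (11.8 and 2.60 FPKM). E2f8 in turn had Kntc1, Loxl1 (11.96 and 2.44 FPKM) and E2f2 as its nearest records, so that E2f2, an activator, and E2f8, a repressor, were each among the other's 3 nearest. E2f7 lay nearest to Gpc3 (6.22 and 0.976 FPKM), Dscc1 (6.15 and 1.004 FPKM) and Exo1 (5.41 and 0.764 FPKM), and E2f3 to Tmem39a (11.5 and 7.05 FPKM), Nalcn (11.5 and 6.76 FPKM) and Gtf2h3 (11.5 and 7.20 FPKM).

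Markers of cell types differed between the same 2 libraries. The counts below stand beside 8.67% of all expressed records at least 2-fold lower and 16.1% at least 2-fold higher. Granule neuron precursor markers were present in both, with 3 of 5 lower by at least 2-fold in the knockout and a summed level of 435.3 and 111.7 FPKM. Their knockout levels ranged from 7.50% of the wild-type level for Cxcr4 (195.7 and 14.7 FPKM) through 15.5% for Atoh1, 35.7% for Boc and 50.4% for Barhl1 to 99.8% for Mfap4. Markers of mature granule neurons (6 of 6, summed level 55.2 and 382.7 FPKM), Purkinje cells (5 of 5, 6.20 and 534.3 FPKM) and GABAergic interneurons (4 of 4, 13.2 and 400.4 FPKM) were all at least 2-fold higher. So were those of astrocytes and Bergmann glia (6 of 6, 361.0 and 2268.7 FPKM) and oligodendrocytes (5 of 5, 47.1 and 576.2 FPKM), with 4 of 5 of microglia and macrophages (23.3 and 69.5 FPKM) and 2 of 4 of endothelial cells (23.9 and 63.4 FPKM). The most abundant marker of these lists in the knockout library was Gabra6, Calb1, Pvalb, Aldoc, Mbp, Csf1r and Slc2a1 in turn. Whether the list for GABAergic interneurons marks these apart from Purkinje cells was not tested. Aqp4, an astrocyte marker, was at the edge of the rule (log2 ratio 1.03, or 0.83 from the bound midpoints and 0.95 after median centring), and no marker was at 0 in either library. Their part in the lower E2F values was not tested.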

How the data were processed

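RNA sequencing of total RNA gave 2 libraries, 1 per genotype. The authors deposited 1 FPKM value per gene, with its bounds and a status flag, as the file headers show. Per the submitters' processing notes, mm10 and Cuffdiff 2.1.1 were used, with no role stated for either. Not given in the sources used here are the aligner, annotation, strand setting and method for the bounds. Of values of at least 1 FPKM, 47.5% in the wild-type and 48.0% in the knockout library lay inside their own bounds, so the bounds were not used as errors. Depth is unknown: among 650 records under 0.05 FPKM in both libraries, the fullest bin of log2 ratios (-0.3 to -0.2) held 50, and no whole reads were recovered. FPKM summed to 388032 in the wild-type and 343028 in the knockout library.

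Records were joined by symbol and locus. Starts in the files count from 0, since 6 of 8 members match a GENCODE M21 start when 1 is added and 0 match as written. Computed here were the log2 ratio with 1 FPKM added, counts past 2-fold, sums, and distances between pairs of values. Members and lists were chosen with earlier results of these data known. Named are all members, all dimer partners, pocket proteins and MuvB genes, of each other pathway list the 4 largest absolute log2 ratios and the 1 smallest, the most abundant gene of each marker list, and the 3 records nearest to E2f1, E2f2, E2f3, E2f7 and E2f8 (without small RNA genes and unnamed models). Atoh1, Boc, Barhl1, Mfap4, Aqp4 and 1810022K09Rik were named after their values were seen. Some genes that the rule took are left out of the text. The 2-fold rule was tested on simulated data. There the fold changes were set in advance, so that check covers the calculation and not the variation between animals or libraries. Alternatives were other pseudocounts, scalings, filters and thresholds, and the midpoint of the bounds. Tools were Python 3.11.15 with pandas 2.3.3, numpy 2.4.6 and, for plots, matplotlib 3.10.9.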

Additional observations from a re-analysis of the deposited data

How the results depend on the processing

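With 1 library per genotype no library could be left out. No paired analysis was possible because each genotype has 1 library. The alternatives were 0.5 or 0.1 FPKM added in place of 1, equal FPKM sums with and without small RNA genes, scaling to the upper quartile, median centring, and the midpoint of the deposited bounds. Under these 7, E2f1, E2f2, E2f7 and E2f8 stayed at least 2-fold lower and E2f3, E2f4, E2f5 and E2f6 stayed within 2-fold with log2 ratios below 0. Their widest ranges were -2.59 to -1.77 (E2f7) and -0.92 to -0.65 (E2f4). Scaling to equal sums moved the median of all expressed records by 0.16. The difference between activators and other members was -0.85 from the bound midpoints. With a threshold of 1.5-fold 8 members were lower, as were 18% of expressed records, and with 4-fold 1 was (E2f1), as were 1.5%. At 4-fold 11 of the 40 targets were lower. These counts are with 1 FPKM added. With 0.1 FPKM added the log2 ratios of E2f1, E2f2, E2f7 and E2f8 were -2.56, -2.04, -2.59 and -2.14, all past 4-fold. The counts at 1.5-fold and 4-fold moved because the threshold did. The 1.5-fold count also depends on the processing. E2f3 (-0.48) and E2f5 (-0.47) fell short of 1.5-fold at equal FPKM sums, and just short (-0.58 each) with small RNA genes left out of the sums. E2f5 also fell short from the bound midpoints (-0.56). At 2-fold 33 to 36 of the targets were lower under the same 7 alternatives. Requiring a mean of 5 FPKM left 9130 records, of which 958 were lower and 1257 higher, against 2139 higher without it, because fewer records were counted.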
